A study of Mus musculus with 31 samples.

Results

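The pyruvate dehydrogenase complex and the enzymes that switch it off and on are described here through 10 genes, chosen by name. They are the 4 kinases Pdk1, Pdk2, Pdk3 and Pdk4, the 2 phosphatases Pdp1 and Pdp2, and 4 genes of the complex itself, Pdha1, Pdhb, Dlat and Pdhx. All 10 were found, through Ensembl identifiers matched to symbols, among the 35275 genes of the insulin experiment and among the 54532 genes of the ERRα3SA experiment. ERRα, encoded by Esrra, is a nuclear receptor that regulates genes of mitochondrial energy metabolism.

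RNA was sequenced from 31 mouse samples in 8 groups, with 15 livers in the insulin experiment and 16 livers and muscles in the ERRα3SA experiment. In the insulin experiment, wild type (WT) and ERRα knockout (ERRα KO) C57BL/6N mice were fasted for 12 h, injected in the abdomen with saline or with insulin at 1 unit per kg, and killed 4 h later. It holds 4 WT saline livers, 4 WT insulin livers, 4 ERRα KO saline livers and 3 ERRα KO insulin livers. In the ERRα3SA experiment, mice homozygous for ERRα3SA, an Esrra allele edited with CRISPR/Cas9 so that 3 serines of ERRα became alanines, stand beside WT littermates from the same heterozygous matings. They are on C57BL/6N too, and each genotype has 4 livers and 4 muscles, taken from gastrocnemius and soleus. The study's methods give males aged 2 to 3 months on a standard diet unless stated otherwise. They describe free access to food in general and name no fast for the ERRα3SA mice of this sequencing. Whether the liver and muscle of equal number are from 1 mouse is not given. The labels give each replicate as a separate sample, and every p-value here measures the spread between samples. Total counts ran from 35.9 M to 48.3 M per sample in the insulin experiment and from 20.5 M to 33.4 M in the ERRα3SA experiment.

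As background, the pyruvate dehydrogenase complex turns pyruvate from glycolysis into acetyl-CoA inside mitochondria and so commits carbohydrate carbon to oxidation or fat synthesis. The kinases phosphorylate its E1 component and shut it down, and the phosphatases remove the phosphate and restart it. In fasted liver and muscle the kinases, Pdk4 above all, are known to hold the complex off so that pyruvate is spared for glucose production, while insulin and feeding are known to lower Pdk4.

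Levels are given as CPM, a gene's share of the counts of its library after scaling by TMM factors (edgeR's scaling between libraries), and, between genes, as RPKM, the same level per kilobase of exon. A gene was called when it differed by 1.2-fold or more in either direction with p, before adjustment, below 0.05, which is the study's own criterion. The test was the edgeR quasi-likelihood test across all genes, and adjusted p means its Benjamini-Hochberg value over all genes tested.

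Esrra itself was measured first, as a check of the genotypes. It stood at 32.3, 51.3, 42.7 and 40.5 CPM in the WT saline livers and at 53.7, 96.5, 56.1 and 59.0 CPM in the WT insulin livers. In the ERRα KO livers it stood at 1.63, 0.703, 1.15 and 1.04 CPM with saline and at 0.833, 0.576 and 0.299 CPM with insulin. The knockout livers were thus far below every WT liver, without overlap. Esrra was at 27.7, 27.1, 28.2 and 29.5 CPM in the WT littermate livers and at 29.4, 25.4, 21.1 and 19.2 CPM in the ERRα3SA livers. In muscle it was at 90.3, 82.7, 67.0 and 78.1 CPM in WT littermates and at 24.3, 133, 127 and 94.6 CPM in ERRα3SA mice. Replicate 1 of the ERRα3SA muscles was the lowest of those 8 muscles and the other 3 ERRα3SA muscles were the highest. The edited ERRα3SA allele changes codons, which gene counts do not read.

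Markers of the labelled tissues were present. The 6 hepatocyte markers, led by Alb, summed to 59980 to 113000 CPM in the livers and to 8.09 to 18.7 CPM in the muscles. The 8 fast fibre markers, led by Myh4 in muscle, summed to 79320 to 194500 CPM in the muscles and to at most 105 CPM in the livers. Of 2 heart markers, Nppa and Myh6, 1 was at 0 in every muscle and the other brought the sum to at most 3.77 CPM.

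Some libraries stood apart from their groups. Among ERRα3SA muscles, replicate 1 had 19.3% of its counts on the mitochondrial genome, where the other 3 had 9.15% to 9.85%, and its fast fibre markers summed to 194500 CPM. Replicate 4 of the ERRα3SA muscles had 259 CPM of the 6 macrophage markers, where the other 3 had 46.5 to 49.5 CPM, and Clec4f, their top gene in liver, was at 0 in all 8 muscles. Replicate 4 of the ERRα3SA livers had 59980 CPM of hepatocyte markers, where the other 3 had 93310 to 106500 CPM. In the WT insulin livers, replicate 2 had 1.88% mitochondrial counts against 3.88% to 4.17% in the others. Replicate 3 had 54.7 CPM of the 6 skeletal muscle markers against 3.57 to 7.86 CPM in the others.

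Insulin against saline in WT liver asks what the hormone does to these genes when ERRα is present. Pdk4 rose and was the only one of the 10 genes called. Over all genes, 17.2% of 13463 were called by the criterion and 3.16% by an adjusted p under 0.05, so a share of 1 in 10 members is below the first background. The second share rests on single libraries: 425 genes had an adjusted p under 0.05, and 105 without WT saline replicate 4. The median log2 fold change was 0.10 over the members and 0.00 over all genes tested. Insulin against saline in ERRα KO liver asks the same without ERRα. Pdk4 rose again and was again the only member called, against 17.2% of 13684 genes by the criterion and 2.91% by adjusted p. Those 398 genes became 84, 42 and 65 without insulin replicate 1, 2 and 4 in turn. The median log2 fold change was 0.11 over the members and -0.02 over all genes.

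ERRα KO against WT with saline asks what losing ERRα does in the fasted liver. Of the 10 members, 5 were called, against 11.3% of 13481 genes: Pdk2, Pdp1, Pdha1 and Dlat were lower and Pdk4 was higher in the knockout. Adjusted p was under 0.05 for 0.0816% of all genes and for 0 members by edgeR, against 5 members with an unadjusted p under 0.05 and 1 member by the adjusted p of DESeq2, which called 248 of all genes that way. The 11 genes by the adjusted p of edgeR became 2 without WT saline replicate 1 and 47 without ERRα KO saline replicate 2. The median log2 fold change was -0.35 over the members and 0.00 over all genes. With insulin, 3 of 10 members were called, against 9.99% of 13665 genes: Pdk2, Pdhb and Dlat were lower in the knockout. Adjusted p was under 0.05 for 0.0585% of all genes and for 0 members by edgeR, against 3 with an unadjusted p under 0.05 and 0 by DESeq2, which called 241 of all genes that way. The share of 9.99% was 5.78% without ERRα KO insulin replicate 2, and the 8 genes by adjusted p became 48 without WT insulin replicate 2. The median log2 fold change was -0.28 over the members and -0.02 over all genes. These 4 liver comparisons share samples, so their results are not independent of each other.

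Whether the response to insulin differed between the genotypes was tested by the interaction term. It called 0 of 10 members in edgeR, with 0 at an unadjusted p under 0.05 and 0 by DESeq2, against 8.79% of 14670 genes by the criterion, or 5.82% without ERRα KO insulin replicate 2. By adjusted p it called 0% of all genes in edgeR, against 1289 genes at an unadjusted p under 0.05 and 20 by the adjusted p of DESeq2.

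ERRα3SA against WT littermates asks what the serine changes do. In liver, 9 members passed the filter on low counts and 1, Pdk4, was called, against 4.88% of 13339 genes. Adjusted p called 0% of all genes in edgeR, against 996 at an unadjusted p under 0.05 and 42 by the adjusted p of DESeq2. Among members it called 0 in edgeR and 0 in DESeq2, with 1 at an unadjusted p under 0.05. In muscle, 0 of 10 members met the criterion in edgeR, with 1 (Dlat) at an unadjusted p under 0.05 and 1 (Pdk4) called by DESeq2, against 4.54% of 14081 genes. By adjusted p, 0% of all genes were called in edgeR, against 672 at an unadjusted p under 0.05 and 56 by DESeq2. The median log2 fold changes over members and over all genes were -0.0047 and -0.0004 in liver, and 0.06 and 0.02 in muscle. The interaction of tissue and ERRα3SA called 0 members in edgeR, with 0 at an unadjusted p under 0.05 and 0 by DESeq2, against 5.57% of 15688 genes. By adjusted p it called 0% of all genes in edgeR, against 881 at an unadjusted p under 0.05 and 27 by DESeq2. Without ERRα3SA muscle replicate 1 the interaction called 2766 genes (17.3%) in place of 874, and 369 by adjusted p.

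WT littermate muscle against WT littermate liver shows how the tissues differ. Of the 10 members, 8 were higher and 1, Pdp2, was lower in muscle, and Pdk1 was not called. The background was 84.2% of 14886 genes by the criterion and 86.5% by adjusted p, so 9 of 10 is close to the share of all genes. The median log2 fold change was 1.70 over the members and 0.00 over all genes tested.

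**Figure D1:**
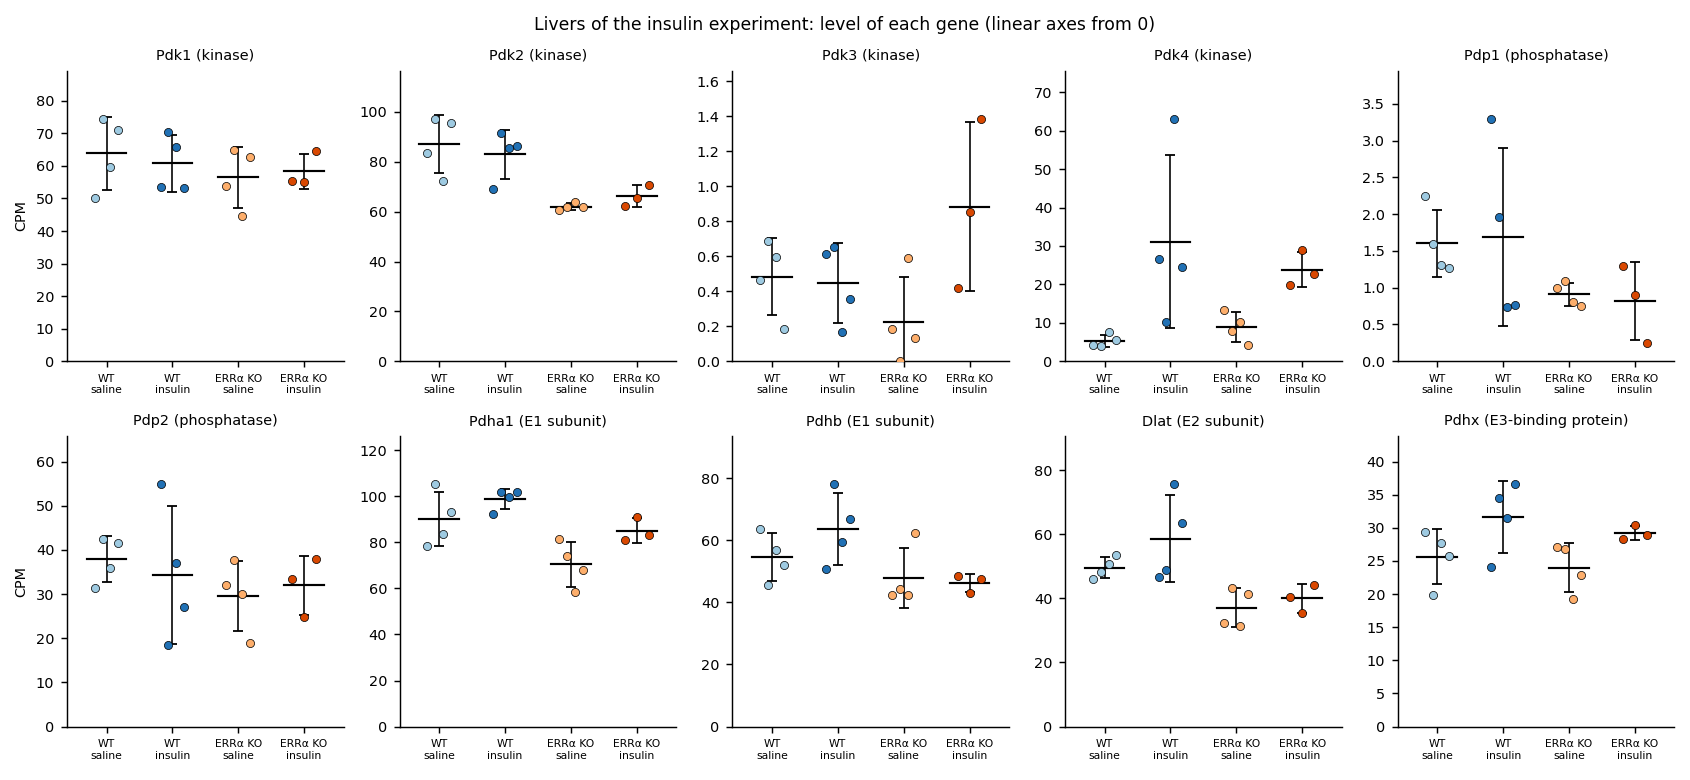
Level of each of the 10 genes in CPM (vertical axes, linear, from 0) in every liver of the insulin experiment. Points are samples, long bars are group means and whiskers are 1 SD. Pdk4 is higher in the insulin livers of both genotypes. With saline, Pdk2 and Dlat are lower in every ERRα KO liver than in any WT liver. With insulin this holds for Dlat, while the Pdk2 values of the genotypes overlap.

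Pdk4 is the kinase best known for rising in fasting. It stood at 4.25, 4.04, 7.5 and 5.62 CPM in the WT saline livers and at 26.5, 10.3, 63.0 and 24.5 CPM in the WT insulin livers. Every insulin liver was above every saline liver, and the 4 insulin livers differed widely among themselves. The fold change was 5.80, with a log2 fold change of 2.54 (95% interval 1.54 to 3.53) and an edgeR adjusted p of 0.015, higher in 4 of 4 insulin livers. WT insulin replicate 3, with the highest Pdk4, is also the library with the skeletal muscle markers, and replicate 2, with the lowest, is the one with few mitochondrial counts. In muscle Pdk4 itself was high, so its level in replicate 3 was read beside those markers: 5 of 6 had counts, led by Des over the livers, their sum was 54.7 CPM, and WT littermate muscle had 47940 to 51030 CPM. The log2 fold change was 1.93 without replicate 3 and 2.25 without replicates 2 and 3, a choice made after seeing the data. Without WT saline replicate 1 or replicate 4, Pdk4 kept its call by the criterion and its adjusted p was no longer under 0.05.

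In the ERRα KO livers Pdk4 stood at 13.4, 7.83, 10.2 and 4.21 CPM with saline and at 19.9, 28.9 and 22.7 CPM with insulin. The 3 insulin livers were all above the 4 saline livers. The fold change was 2.67, with a log2 fold change of 1.42 (95% interval 0.74 to 2.10) and an edgeR adjusted p of 0.0364, higher in 3 of 3 insulin livers. That adjusted p was not under 0.05 without ERRα KO saline replicate 2 or without any 1 of the 3 insulin livers, while the call by the criterion remained. The rise in the knockout less the rise in WT was -1.11 on the log2 scale (95% interval -2.40 to 0.17), with an edgeR adjusted p of 0.612. The test therefore did not show that the responses differed. The criterion was met for this difference with no filter on low counts (log2 difference -1.11), without ERRα KO saline replicate 4 (-1.35) and without WT insulin replicate 2 (-1.40). It was not met, and the difference was smaller, without WT insulin replicate 3 (-0.51) and with replicate number as a block (-0.66).

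Between genotypes, Pdk4 with saline was higher in the knockout by a fold change of 1.66, with a log2 fold change of 0.73 (95% interval 0.03 to 1.44) and an edgeR adjusted p of 0.392. The groups overlapped: 1 of 4 knockout livers, at 4.21 CPM, lay within the WT range of 4.04 to 7.5 CPM. This call was lost in 6 of the 8 fits that left out 1 library, with all 4 groups in the fit and with replicate number as a block. With insulin the log2 fold change was -0.39 and the edgeR adjusted p 0.828, and the value turned to 0.22 without WT insulin replicate 3.

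Summed markers of other cells differed between samples of the insulin experiment. The 5 exocrine pancreas markers, led by Ctrb1, summed to 995, 47.5, 4.05 and 1368 CPM in the WT saline livers and to 14.1, 93.4, 6.77 and 170 CPM with insulin. In the ERRα KO livers they summed to 244, 27.5, 4.14 and 115 CPM with saline and to 9.26, 5.68 and 6.27 CPM with insulin. WT saline replicates 1 and 4 were far above all other livers of the experiment. Insulin against saline called 2 of the 5 pancreas markers lower in WT and all 5 lower in ERRα KO liver. The knockout against WT had 0 called with saline and all 5 called lower with insulin. Their median log2 fold change was -5.36 for insulin in ERRα KO liver and -5.07 for the knockout with insulin. Of the 6 adipocyte markers, 1 gene, Cidec, made up nearly the whole sum, so the sum is no measure of adipocytes. Cidec was at 32.5, 49.9, 17.3 and 13.04 CPM in the WT saline livers, where the 6 summed to 33.0, 50.1, 18.2 and 14.1 CPM. With insulin it was at 105, 56.8, 74.9 and 92.1 CPM, where they summed to 107, 58.0, 75.9 and 92.8 CPM. In the knockout Cidec was at 72.4, 29.4, 31.5 and 46.4 CPM with saline and at 52.6, 73.2 and 72.0 CPM with insulin. Of the 6, from 0 to 3 had no counts in a given liver of the experiment. Of the 5 pancreas markers, 3 or 4 had no counts in WT saline replicate 3, WT insulin replicate 3, ERRα KO saline replicate 3 and ERRα KO insulin replicate 2, and all had counts elsewhere in these livers. The part of these markers in the results for Pdk4 and the other members was not tested. In bulk tissue, fewer cells of a type and less RNA per cell cannot be told apart.

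**Figure D2:**
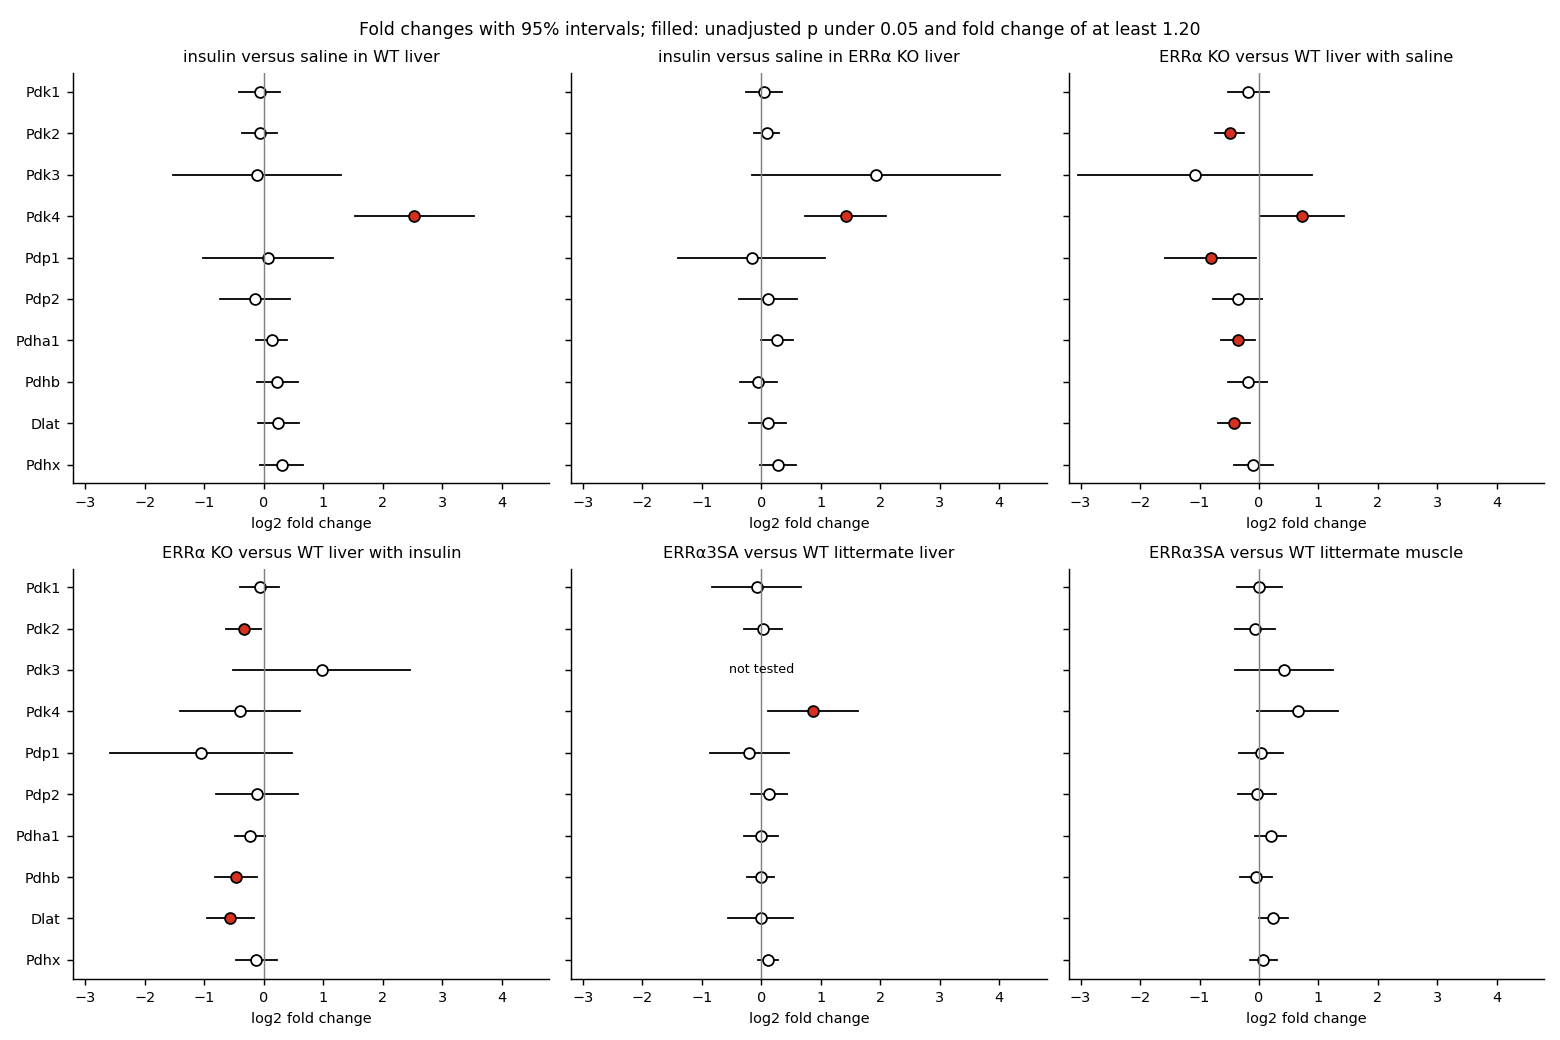
Log2 fold change (horizontal axes) of each gene in 6 comparisons, with lines for the 95% interval. Filled points met the criterion. Pdk4 is the only filled point in both insulin comparisons, where in ERRα KO liver Pdk3 lies farther right with a wide interval, and Pdk3 was not tested in the ERRα3SA liver comparison.

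The insulin label was set beside 10 genes known to respond to insulin or to the FoxO factors that insulin restrains. In WT liver 4 of 10 were called higher and 4 lower with insulin, where 17.2% of all tested genes were called. Igfbp1, a secreted binding protein that insulin is known to lower, was at 167, 200, 154 and 77.6 CPM with saline and at 773, 1539, 301 and 442 CPM with insulin. All 4 insulin livers were above all 4 saline livers, the fold change was 5.11 and the edgeR adjusted p was 0.0225. G6pc, the last enzyme of glucose production and also known to be lowered by insulin, was at 250, 228, 293 and 256 CPM with saline and at 438, 596, 269 and 306 CPM with insulin. Its groups overlapped, with a fold change of 1.57 and an edgeR adjusted p of 0.165. Irs2, an adaptor of the insulin receptor, and Tat, an amino acid enzyme, were called higher too, with fold changes of 1.53 and 1.80. Pck1, another enzyme of glucose production, was lower with a fold change of 0.733, as were Insr (0.741), Ppp1r3c (0.588) and Fasn (0.644), the last an enzyme of fat synthesis that insulin is known to raise.

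In ERRα KO liver 4 of the 10 were called higher and 2 lower with insulin, with 17.2% of all tested genes called there too. Igfbp1 was at 883, 166, 1162 and 358 CPM with saline and at 953, 2244 and 1522 CPM with insulin, a fold change of 2.44. The groups overlapped, because saline replicate 3 was above insulin replicate 1. Irs2 rose with a fold change of 1.93 and an edgeR adjusted p of 0.0466, and G6pc and Tat were called higher with fold changes of 1.76 and 1.66. Srebf1, a regulator of fat synthesis, and Fasn were called lower, with fold changes of 0.585 and 0.524. So 4 hours after the injection the livers labelled insulin had more Igfbp1, G6pc and Irs2 RNA in both genotypes, and less Fasn, which is opposite to the textbook direction of an acute insulin response for these 4 genes. Pdk4, which insulin is known to lower, was called higher with insulin in both genotypes and so ran opposite to its known direction too. Pck1 and Insr, lower with insulin in WT liver, ran in the textbook direction.

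**Figure D3:**
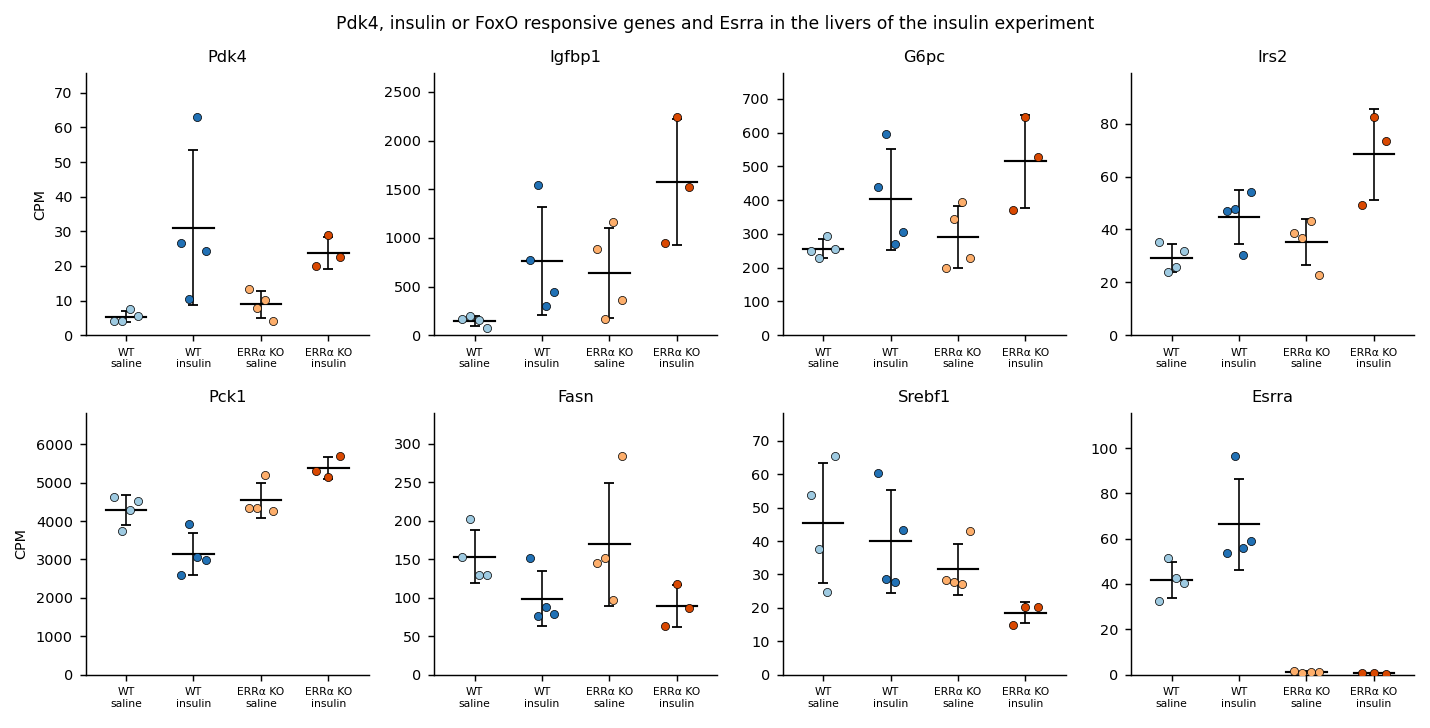
Levels in CPM (vertical axes, linear, from 0) of Pdk4, 6 genes known to respond to insulin or FoxO, and Esrra in the livers of the insulin experiment. Points are samples, long bars group means and whiskers 1 SD. Igfbp1 and Pdk4 are higher in all WT insulin livers than in any WT saline liver, and Esrra is near the bottom of the axis in the ERRα KO livers.

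In the ERRα3SA experiment Pdk4 stood at 15.7, 13.7, 11.7 and 12.5 CPM in the WT littermate livers and at 17.9, 20.5, 46.8 and 12.8 CPM in the ERRα3SA livers. Replicate 3 was far above the others, replicate 4 lay within the WT range, and the groups overlapped. The fold change was 1.83, with a log2 fold change of 0.87 (95% interval 0.11 to 1.63) and an edgeR adjusted p of 0.639, and 3 of 4 ERRα3SA livers were above every WT littermate. Without ERRα3SA liver replicate 3 the log2 fold change was 0.35 and the call was lost. It was lost as well without WT littermate liver replicate 2, 3 or 4 and with replicate number as a block. Without ERRα3SA liver replicate 4 it was kept, at a log2 fold change of 1.08. In the same comparison 3 of 5 cholangiocyte markers were called lower, with a median log2 fold change of -0.93 over the 5. Of 3 tested T and B cell markers, 1 was called higher and 2 lower. Of the macrophage, the liver endothelial and the stellate cell or fibroblast markers, 1 each was called higher and 0 lower. The part of these markers in the Pdk4 value was not tested.

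In muscle Pdk4 stood at 444, 647, 231 and 563 CPM in WT littermates and at 538, 838, 629 and 893 CPM in ERRα3SA mice. WT replicate 3 was the lowest, ERRα3SA replicates 2 and 4 were the highest, and the groups overlapped. ERRα3SA replicate 4, the highest, is the library with the macrophage markers, and their part in the Pdk4 value was not tested. The fold change was 1.57, with a log2 fold change of 0.65 (95% interval -0.02 to 1.33) and an edgeR adjusted p of 1, and it was not called. It met the criterion without ERRα3SA muscle replicate 1 (log2 fold change 0.78), without WT littermate muscle replicate 2 (0.85), by DESeq2 (0.66), with no filter on low counts (0.64) and with replicate number as a block (0.72). It also met it without ERRα3SA muscle replicates 1 and 4, a choice made after seeing the data. It was not met, with a smaller value, without WT littermate muscle replicate 3 (0.43) or 1 (0.63), without ERRα3SA muscle replicate 4 (0.52) or 2 (0.58), and with all 4 groups in the fit (0.62). Without replicate 1, the number of genes called in all rose from 639 to 2506, and 464 genes had an adjusted p under 0.05 with no fold limit. Without replicates 1 and 4, 2597 genes and 2 members, Pdk4 and Dlat, were called. The tissue difference in the ERRα3SA effect on Pdk4 was -0.25 on the log2 scale, with an edgeR adjusted p of 1. Without ERRα3SA liver replicate 3 it was 0.32, of the other sign, and it was not called either way.

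Between the tissues of WT littermates Pdk4 had a fold change of 35.8, with a log2 fold change of 5.16 (95% interval 4.56 to 5.76) and an edgeR adjusted p of 3.39e-10. All 4 muscles lay above all 4 livers.

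**Figure D4:**
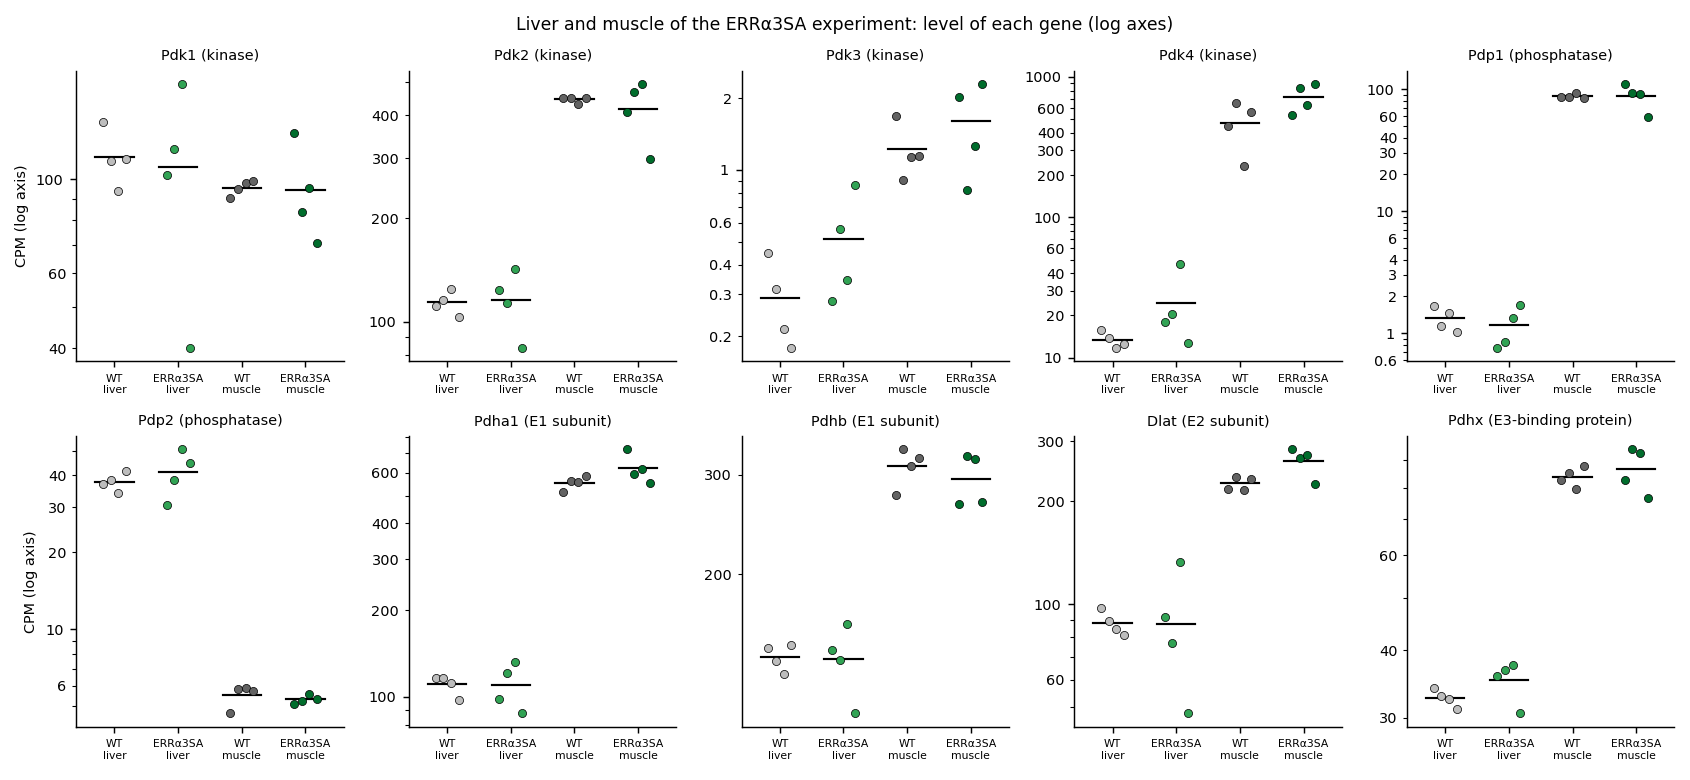
Level of each of the 10 genes in CPM (vertical axes, log scale) in every liver and muscle of the ERRα3SA experiment, where WT means WT littermate. Points are samples and bars are group means. Every gene but Pdk1 separates muscle from liver in WT littermates, and of those 9 only Pdp2 is lower in muscle.

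The promoters of the members were searched for motifs, since Pdk4 was higher and 4 other members lower in the knockout with saline. RefSeq start sites were found for 9 of 10 members, 11 sites in all, and none was matched to Pdp1 in the copy used. The 250 bases before each site were searched on both strands for TNAAGGTCA, the extended half-site of ERR receptors, for AAGGTCA and for TGTTTAC, a FoxO motif. None of the 9 members searched held any of these letters in these 250 bases. Bases farther from the start were not searched, so sites there are not excluded. By ChIP-qPCR the study reports more ERRα bound at the Pdk4 promoter in ERRα3SA mice. AGGTCA, contained in TNAAGGTCA and AAGGTCA, and CCAAT were added after that search. AGGTCA was in none of the 9 members, and CCAAT was in 5 of them. Of 32817 promoters of this length, 1.14% held TNAAGGTCA, 4.08% AAGGTCA, 3.16% TGTTTAC, 14.0% AGGTCA and 33.8% CCAAT. Shown are Pdk4, the member that rose, and Pdk2 and Dlat, lower in the knockout with and without insulin. Capitals mark CCAAT or, on the other strand, ATTGG, at 131 to 127 bases before the start in Pdk4 and at 105 to 101, 73 to 69 and 42 to 38 bases before it in Pdk2. Bases inside the annotated gene were left off, 31 for Pdk4. The sequences are from RefSeq on GRCm38.p6, on the minus strand, at chr6:5496310-5496528, chr11:95041372-95041621 and chr9:50659781-50660030.
Pdk4: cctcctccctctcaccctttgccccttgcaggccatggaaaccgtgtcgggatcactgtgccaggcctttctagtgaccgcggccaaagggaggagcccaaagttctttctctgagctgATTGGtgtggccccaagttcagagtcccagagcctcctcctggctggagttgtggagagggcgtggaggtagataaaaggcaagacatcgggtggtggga
Pdk2: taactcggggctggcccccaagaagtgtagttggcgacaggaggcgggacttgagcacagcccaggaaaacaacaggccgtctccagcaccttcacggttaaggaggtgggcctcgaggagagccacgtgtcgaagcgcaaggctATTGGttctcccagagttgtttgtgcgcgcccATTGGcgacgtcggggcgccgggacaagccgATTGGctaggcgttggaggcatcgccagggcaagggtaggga
Dlat: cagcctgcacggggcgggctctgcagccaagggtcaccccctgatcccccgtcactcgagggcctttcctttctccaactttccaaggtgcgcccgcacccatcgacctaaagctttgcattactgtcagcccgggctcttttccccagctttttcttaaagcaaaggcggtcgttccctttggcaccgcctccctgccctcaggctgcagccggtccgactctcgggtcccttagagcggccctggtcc

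Pdk2 was the most abundant kinase in liver. It stood at 83.5, 97.2, 72.5 and 95.7 CPM in the WT saline livers and at 60.5, 61.8, 63.9 and 61.9 CPM in the ERRα KO saline livers. The 4 knockout livers were close together and all below the 4 WT livers. The log2 fold change was -0.49 (95% interval -0.73 to -0.25), with an edgeR adjusted p of 0.161, and the call held in all 8 fits that left out 1 library. With insulin Pdk2 stood at 68.9, 91.6, 85.5 and 86.4 CPM in WT and at 62.1, 65.5 and 70.8 CPM in the knockout. Knockout replicate 4 was above WT replicate 1, so these groups overlapped. The log2 fold change was -0.34 (95% interval -0.64 to -0.04), with an edgeR adjusted p of 0.422, and the call was lost in 4 of the 7 fits that left out 1 library. With replicate number as a block Pdk2 was not called there and Pdp1 was, at a log2 fold change of -1.35. Insulin itself gave log2 fold changes of -0.07 in WT and 0.09 in the knockout, neither called.

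In muscle Pdk2 was at 450, 450, 432 and 451 CPM in WT littermates, against 111, 116, 125 and 103 CPM in their livers. The groups lay far apart, with a fold change of 4.01 and an edgeR adjusted p of 3.22e-12, higher in 4 of 4 muscles. The ERRα3SA muscles were at 409, 468, 494 and 299 CPM and the ERRα3SA livers at 124, 114, 142 and 83.7 CPM. Replicate 4 was the lowest in both tissues, and log2 fold changes were -0.07 in muscle and 0.03 in liver.

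Pdk1, a kinase known to respond to low oxygen, was called in none of the 9 comparisons in edgeR; in WT muscle against liver, the nearest, its log2 fold change was -0.21 with an adjusted p of 0.059. Its levels ran from 44.5 to 74.4 CPM in the livers of the insulin experiment. In the ERRα3SA livers it was at 102, 118, 168 and 40.1 CPM, with replicates 3 and 4 above and below all other samples of that experiment. Pdk3, the least abundant kinase, was at most 1.38 CPM in every liver and at 0.826 to 2.30 CPM in the muscles. At this depth it was too low for the filter in the ERRα3SA liver comparison. In ERRα KO livers it had a log2 fold change of 1.94 with insulin (95% interval -0.15 to 4.02), which was not called by edgeR. It was called by DESeq2, and by edgeR with no filter on low counts, with all 4 groups in the fit, with replicate number as a block and without knockout saline replicate 3. In WT muscle against liver its fold change was 4.13, with an edgeR adjusted p of 6.75e-05 and 4 of 4 muscles above all livers.

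Pdp1 and Pdp2, the phosphatases, divided by tissue. Pdp1, known as the calcium-stimulated form, stood at 1.66, 1.15, 1.46 and 1.03 CPM in the WT littermate livers and at 86.8, 86.4, 92.2 and 84.7 CPM in their muscles. The tissues lay far apart, with a fold change of 66.4 (log2 6.05, 95% interval 5.81 to 6.29) and an edgeR adjusted p of 2.93e-15, higher in 4 of 4 muscles. Pdp2 stood at 37.0, 38.3, 34.2 and 41.5 CPM in those livers and at 4.68, 5.85, 5.88 and 5.73 CPM in the muscles. It was the member that was lower in muscle, in 4 of 4, with a fold change of 0.15 (log2 -2.74, 95% interval -2.94 to -2.54) and an edgeR adjusted p of 1.87e-12. ERRα3SA gave log2 fold changes of -0.20 in liver and 0.04 in muscle for Pdp1, and of 0.13 and -0.03 for Pdp2, none called.

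In the insulin experiment Pdp1 was at 2.25, 1.59, 1.30 and 1.27 CPM in WT saline livers and at 0.997, 1.09, 0.805 and 0.754 CPM in the ERRα KO saline livers. The knockout livers were all below the WT livers. On the log2 scale the change was -0.81 (95% interval -1.58 to -0.05), with an edgeR adjusted p of 0.378. The call was lost without ERRα KO saline replicate 1, 3 or 4 and without WT saline replicate 1 or 2, and also with all 4 groups in the fit and with replicate number as a block. With insulin Pdp1 was at 3.29, 1.96, 0.741 and 0.759 CPM in WT and at 1.30, 0.906 and 0.244 CPM in the knockout, overlapping and not called, with a log2 fold change of -1.05. Pdp2 ran from 18.5 to 54.9 CPM over these livers. It was called in none of the 5 comparisons of the experiment by edgeR, with 0 at an unadjusted p under 0.05 and 0 by DESeq2. Without ERRα KO saline replicate 2, edgeR called Pdp2 lower in the knockout with saline.

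Within each sample the make-up of the kinases could be given per length. In the WT saline livers Pdk2 made up 73.5% ± 3.11 of the summed kinase RPKM (mean ± SD, n = 4), Pdk1 21.8% ± 2.06 and Pdk4 4.17% ± 1.61. With insulin the share of Pdk4 was 19.6% ± 10.9 in WT (n = 4) and 19.0% ± 3.09 in the knockout (n = 3), against 8.56% ± 3.64 in the knockout with saline (n = 4). By sample it was 20.7%, 7.14%, 33.5% and 16.9% in the WT insulin livers, all above the 2.76% to 6.48% of the saline livers. In muscle Pdk4 made up 45.2% ± 10.5 in WT littermates and 58.4% ± 9.33 in ERRα3SA mice (n = 4 each), and those groups overlapped. In liver of that experiment the share was 7.01% ± 0.713 in WT littermates and 11.5% ± 3.53 in ERRα3SA mice (n = 4 each). All 4 ERRα3SA livers, from 8.87% to 16.7%, were above the WT range of 6.07% to 7.80%. In replicate 4, at 10.2%, Pdk4 itself lay within the WT range, while the summed kinase RPKM was 35.6, against 50.6 to 57.4 in the WT littermate livers. Pdp1 made up 95.2% ± 0.472 of the phosphatase RPKM in WT littermate muscle and 4.29% ± 1.13 in their liver (n = 4 each). The liver share depends on the gene length. With the length of the transcript with the longest coding sequence, Pdp1 was at 0.502 RPKM in that liver, against 0.294 by summed exon length. Pdp2 was at 6.63 RPKM there by both lengths.

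The ratio of summed kinase RPKM to summed phosphatase RPKM was 5.35 ± 0.286 in WT saline livers (n = 4) and 7.78 ± 3.17 in WT insulin livers (n = 4). By sample the insulin livers were at 3.52, 11.2, 8.03 and 8.41, so that 3 lay above and 1 below the saline range of 4.98 to 5.68. In the knockout it was 5.78 ± 1.73 with saline (n = 4) and 6.30 ± 1.48 with insulin (n = 3), overlapping. It was 7.90 ± 0.851 and 7.89 ± 2.56 in WT littermate and ERRα3SA livers, and 14.2 ± 3.01 and 18.1 ± 5.63 in their muscles (n = 4 each). The 4 WT muscles, from 10.02 to 16.8, lay above the 4 WT littermate livers, from 6.73 to 8.67. That order depends on the gene length: with the length of the transcript with the longest coding sequence the mean ratio was 10.4 in WT littermate muscle and 10.8 in WT littermate liver, but 12.6 in ERRα3SA muscle and 10.7 in ERRα3SA liver. The ratio of summed kinase to summed subunit RPKM was 0.682 ± 0.0763 in WT saline livers and 0.684 ± 0.0927 in WT insulin livers (n = 4 each), and 0.971 ± 0.164 in WT littermate muscle. No test was run on these shares and ratios, which are descriptions.

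**Figure D5:**
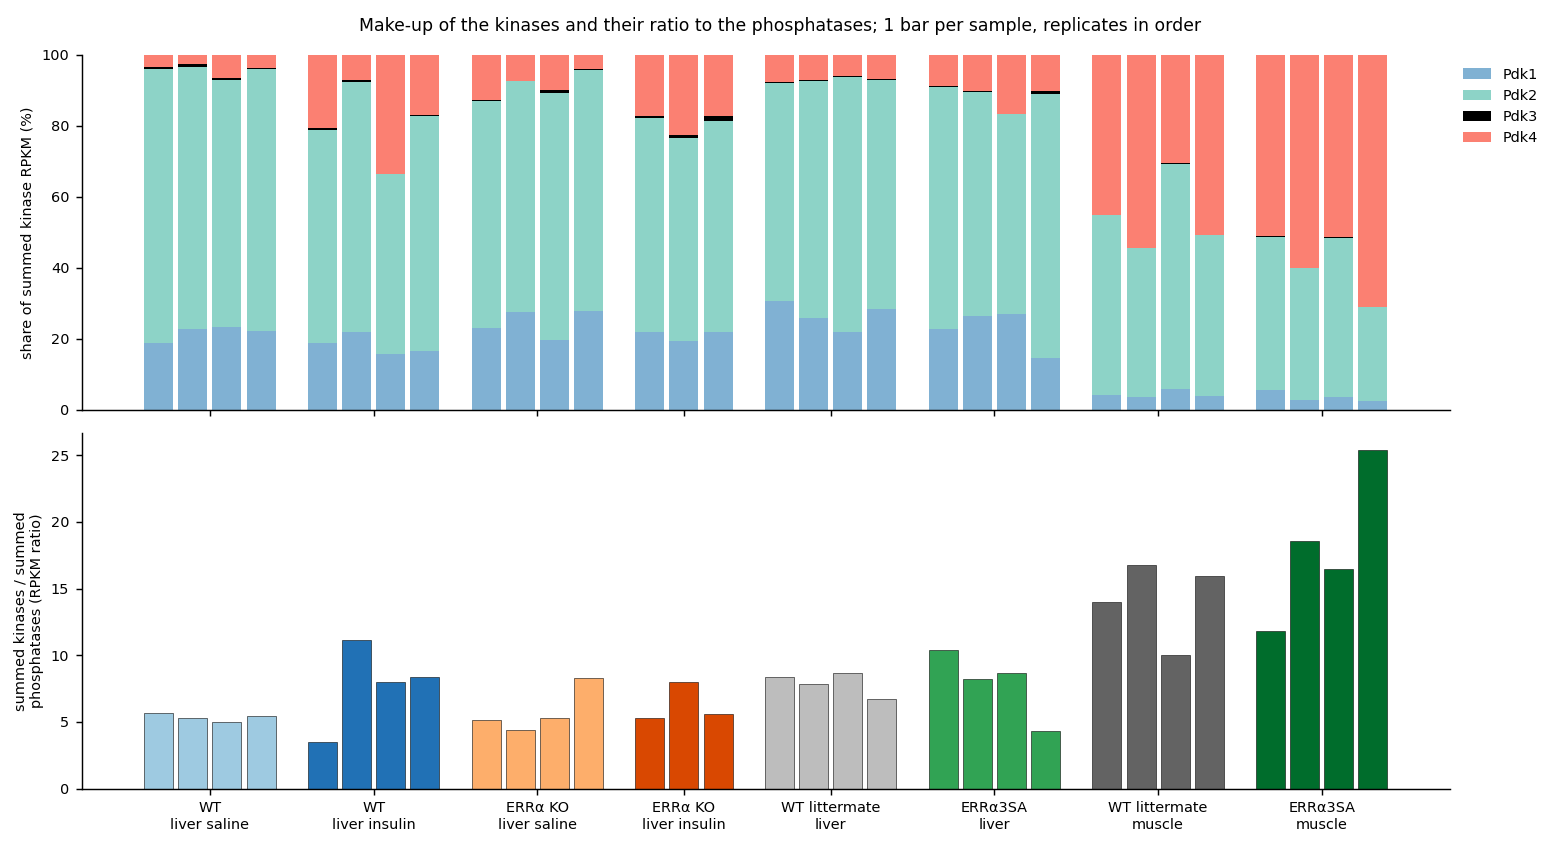
Upper panel: share of each kinase in the summed kinase RPKM, in percent, 1 bar per sample in all 8 groups. Lower panel: ratio of summed kinase RPKM to summed phosphatase RPKM (vertical axis from 0). Pdk2 leads in every liver, and Pdk4 takes 30.5% to 70.9% in the muscles.

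Pdha1, the catalytic alpha subunit of E1, stood at 78.3, 105, 83.6 and 93.1 CPM in the WT saline livers and at 81.6, 73.9, 58.5 and 68.2 CPM in the ERRα KO saline livers. The groups overlapped, since knockout replicate 1 was above WT replicate 1. On the log2 scale the change was -0.35 (95% interval -0.64 to -0.07), with an edgeR adjusted p of 0.31. The call was lost without knockout replicate 3 or WT replicate 2. With insulin, WT livers were at 92.5 to 102 CPM and knockout livers at 80.9 to 91.1 CPM, without overlap, and the log2 fold change of -0.23 was not called (edgeR adjusted p 0.545). Of the exon bases of Pdha1, 16.1% lie opposite the gene Map3k15, and the strandedness of the counts is not stated.

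Dlat, the E2 core whose lipoyl arms bind the kinases, stood at 46.1, 48.3, 50.7 and 53.5 CPM in WT saline livers and at 32.3, 43.3, 31.3 and 41.5 CPM in the knockout. All 4 knockout livers were below all 4 WT livers. On the log2 scale the change was -0.42 (95% interval -0.69 to -0.14), with an edgeR adjusted p of 0.235, and this call held in all 8 fits that left out 1 library. With insulin Dlat was at 46.8, 48.8, 75.6 and 63.5 CPM in WT and at 40.4, 35.4 and 44.3 CPM in the knockout, again without overlap. On the log2 scale the change was -0.56 (95% interval -0.96 to -0.16), with an edgeR adjusted p of 0.327.

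Pdhb, the beta subunit of E1, was lower in the knockout with insulin. It stood at 50.6, 78.0, 59.4 and 66.9 CPM in WT and at 48.5, 43.0 and 47.5 CPM in the knockout, without overlap. On the log2 scale the change was -0.47 (95% interval -0.82 to -0.12), with an edgeR adjusted p of 0.34. Without knockout insulin replicate 2, 0 members were called in that comparison by edgeR. With saline Pdhb was at 63.7, 45.5, 56.7 and 52.1 CPM in WT and at 42.4, 44.2, 42.5 and 62.2 CPM in the knockout. Knockout replicate 4 lay within the WT range and the other 3 below it, and the log2 fold change of -0.19 was not called. Pdhx, which binds E3 to the core, ran from 19.2 to 36.6 CPM over the livers of the insulin experiment. It was called in none of its 5 comparisons by edgeR, with 0 at an unadjusted p under 0.05 and 0 by DESeq2. In ERRα KO liver its insulin values, 28.3 to 30.4 CPM, all lay above its saline values, 19.2 to 27.1 CPM. The log2 fold change there was 0.28. With insulin, edgeR called Pdhx higher in ERRα KO liver without saline replicate 1 or 2, and in WT liver without insulin replicate 1.

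Mitochondrial counts moved in part with the knockout. They made up 3.68% to 4.82% of the counts in WT saline livers and 3.16% to 3.91% in the knockout with saline, and 1.88% to 4.17% and 3.14% to 3.54% with insulin. Their part in the lower subunit levels was not tested. Leaving the mitochondrial genome out of the fit gave 5 and 3 called members, as with it. It hardly moved all genes called, from 1520 to 1523 with saline and from 1365 to 1364 with insulin. It is therefore no test of that part.

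In WT littermate muscle all 4 subunits were higher than in liver, in 4 of 4 muscles. Fold changes were 5.12 for Pdha1, 2.22 for Pdhb, 2.62 for Dlat and 2.63 for Pdhx, with edgeR adjusted p of at most 2.46e-09. Pdha1 ran from 97.6 to 117 CPM in those livers and from 513 to 584 CPM in those muscles. Against WT littermates, ERRα3SA gave subunit log2 fold changes of -0.01 to 0.11 in liver and -0.05 to 0.24 in muscle. The highest was Dlat in muscle, at 218, 236, 215 and 233 CPM in WT and 284, 267, 273 and 225 CPM in ERRα3SA mice. In it 3 of 4 ERRα3SA muscles were above every WT muscle, and replicate 4 lay within the WT range. Its fold change was 1.18, under the 1.2 of the criterion, with an edgeR adjusted p of 1.

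By RPKM, Pdk2 (27.6 ± 3.66) and Pdha1 (24.1 ± 3.17) led in the WT saline livers and their samples overlapped (mean ± SD, n = 4, by summed exon length). Pdhb (14.1 ± 1.98) and Dlat (10.2 ± 0.646) followed, separate from each other. With the length of the transcript with the longest coding sequence, Pdhb (36.0) stood between Pdk2 (38.8) and Pdha1 (31.6) in these livers. Dlat, Pdk1 (8.21 ± 1.43), Pdp2 (6.66 ± 0.909) and Pdhx (6.53 ± 1.05) each overlapped the next, and Pdk4 (1.52 ± 0.453), Pdp1 (0.356 ± 0.101) and Pdk3 (0.189 ± 0.0853) stood apart below. With insulin in WT, Pdk4 (8.85 ± 6.40) held place 5 of 10 and overlapped its neighbours Dlat (12.0 ± 2.77) and Pdhx (8.06 ± 1.39). That place depends on the length too: by the coding transcript length Pdk4 (8.92) was below Pdhx (12.65) and Pdk1 (11.72) there. In the ERRα KO livers Pdk4 was at 2.53 ± 1.10 with saline (n = 4), between Pdp2 and Pdp1, and at 6.79 ± 1.30 with insulin (n = 3), between Pdhx and Pdp2. By the coding transcript length it was at 6.84 in the ERRα KO insulin livers, between Dlat (9.93) and Pdp2 (5.63).

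In WT littermate liver the order opened with Pdhb (37.0 ± 2.02), Pdk2 (36.0 ± 2.86), Pdha1 (29.6 ± 2.40) and Dlat, of which Pdhb and Pdk2 overlapped (RPKM, n = 4). In ERRα3SA liver each gene from Pdhb (36.6 ± 5.39) down to Pdk4 (6.97 ± 4.33) overlapped the next. In WT littermate muscle Pdha1 (148 ± 7.98), Pdk2 (141 ± 2.85), Pdk4 (134 ± 51.4) and Pdhb (80.4 ± 6.27) each overlapped the next, and Dlat (46.1 ± 2.16) stood below. Pdhx (21.3 ± 0.924) and Pdp1 (19.4 ± 0.727) overlapped, and Pdk1 (12.3 ± 0.501), Pdp2 (0.972 ± 0.101) and Pdk3 (0.476 ± 0.129) closed the order, each apart. In ERRα3SA muscle Pdk4 (206 ± 48.1) was first and overlapped Pdha1 (167 ± 19.6), which overlapped Pdk2 (132 ± 27.5). These places are by summed exon length. With the length of the transcript with the longest coding sequence, WT littermate muscle opened with Pdhb (205), Pdk2 (198), Pdha1 (194) and Pdk4 (135), and ERRα3SA muscle with Pdha1 (219) above Pdk4 (208). By that length WT littermate liver opened with Pdhb (94.5), Pdk2 (50.6) and Pdha1 (38.9).

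Other genes of pyruvate use were read from named lists. Of all tested genes, 17.2% were called with insulin in WT and 17.2% in ERRα KO liver, and 11.3% with saline and 9.99% with insulin in the knockout against WT. These shares apply to the list counts below, too. Of 12 genes that bring pyruvate to the complex or share it, 11 were tested in WT liver, and 3 were called higher and 1 lower with insulin. Higher were Gpt2 (fold change 1.57), a transaminase between pyruvate and alanine, Ldhb (2.25), a lactate dehydrogenase, and Mpc2 (1.29), a subunit of the mitochondrial pyruvate carrier; lower was Pklr (0.790), the liver pyruvate kinase. In ERRα KO liver Gpt2 (1.28) was called higher and Pklr (0.478) and Ldha (0.628) lower. In the knockout against WT, Pdpr (0.682), a regulator of the phosphatase, was called lower with saline. With insulin, Dld (0.739), the E3 enzyme of the complex, was lower and Pcx (1.25), pyruvate carboxylase, higher. None of these had an edgeR adjusted p under 0.05, against 4, 3, 1 and 2 called by the criterion.

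Of 7 genes of the sister complexes for 2-oxoglutarate and branched-chain acids, all tested, Ogdh (0.742) and Dlst (0.776) were called lower in the knockout with saline. With insulin Dlst (0.786) was lower and Ppm1k (1.55), the phosphatase of the branched-chain complex, higher. Insulin called Bckdk (0.679), the kinase of that complex, lower in WT and Ppm1k (1.46) higher in the knockout. Of 8 genes that supply thiamine or lipoate, 6 were tested. Insulin against saline in the knockout called 1 higher, Slc19a2 (1.31), a thiamine transporter, and 2 lower, among them Lipt2 (0.554), an enzyme of lipoate attachment. Their calls were by the criterion, and none had an edgeR adjusted p under 0.05.

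Of 12 genes for factors that act on Pdk genes, insulin in WT called Ppargc1a (2.34), a coactivator of ERRα and FoxO1, and Esrra (1.59) higher. In the knockout it called Foxo3 (1.52) higher. Ppargc1a was at 17.9, 27.1, 11.4 and 14.8 CPM in WT saline livers and at 73.6, 24.1, 31.5 and 37.2 CPM with insulin. Insulin replicate 2 lay below saline replicate 2, and the other 3 lay above every saline liver. In the knockout against WT, besides Esrra, Ppargc1a (1.94) was called higher and Foxo3 (0.794) lower with saline, and Foxo3 (1.56) and Foxo1 (1.38) higher with insulin. Esrra had an edgeR adjusted p of 2.58e-06 with saline and 3.55e-05 with insulin in those comparisons, lower in every knockout liver.

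Of 12 genes that respond to PPARα or fasting, 11 were tested in liver. Angptl4, a lipase inhibitor that fasting raises, was at 135, 132, 197 and 121 CPM in the WT saline livers and at 219, 255, 284 and 317 CPM with insulin. The insulin livers were all above the saline livers, with a fold change of 1.84 and an edgeR adjusted p of 0.0226. In ERRα KO liver insulin called Angptl4 (1.34) and Cyp4a10 (1.30) higher and Plin2 (0.464) and Fgf21 (0.406) lower. Plin2, a lipid droplet coat protein, was at 900, 616, 776 and 744 CPM with saline and at 333, 358 and 368 CPM with insulin in the knockout, far apart, with an edgeR adjusted p of 0.00571. With saline the knockout was called higher than WT for Fgf21 (2.95), Plin2 (1.5) and Angptl4 (1.43) and lower for Ehhadh (0.631). With insulin it was called higher for Cyp4a10 (1.34) and lower for Plin2 (0.702). Of the insulin or FoxO responsive genes, Igfbp1 (4.30) and Tat (1.5) were called higher in the knockout with saline. With insulin Pck1 (1.70) and Irs2 (1.52) were higher and Srebf1 (0.460) lower. The genotype by insulin interaction called 5 of 58 tested genes of the 6 lists: Ldha, Esrra, Foxo3, Plin2 and Pck1, none with an edgeR adjusted p under 0.05. Esrra is the deleted gene and near 0 in the knockout, so its call says nothing of a response. It called 8.79% of all 14670 tested genes.

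In ERRα3SA liver 0 of 57 tested genes of these 6 lists were called by edgeR, against 1 at an unadjusted p under 0.05 and 0 called by DESeq2, where 4.88% of all tested genes were called. In muscle, where that share was 4.54%, 5 of 50 were called: Acot2 (1.59), a mitochondrial thioesterase, Angptl4 (2.94) and Ppara (1.31) were higher, and Fasn (0.577) and Srebf1 (0.632) lower. None had an edgeR adjusted p under 0.05. Angptl4 in muscle was at 4.82, 7.04, 1.82 and 3.82 CPM in WT littermates and at 3.15, 10.6, 6.44 and 29.6 CPM in ERRα3SA mice. Its highest value was in replicate 4, the library with the macrophage markers, and the part of those markers was not tested. All 3 markers of motor nerve were called lower in ERRα3SA muscle, at a median log2 fold change of -0.93. Of them only Mbp is printed. It was at 82.4, 58.6, 64.0 and 59.8 CPM in WT littermates and at 18.6, 30.6, 42.7 and 43.9 CPM in ERRα3SA mice. The part of the motor nerve markers in the muscle results, Pdk4 among them, was not tested.

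Between the tissues, 52 of 58 tested genes of the lists were called, beside 84.2% of all tested genes. Genes among the 6 with the smallest p of each list follow with their fold changes, muscle over liver; genes near 0 in 1 tissue are given by direction alone. Of the pyruvate genes, Ldhb (128), Pkm (181) and Pdpr (6.25) were higher in muscle and Gpt (0.0597), Pcx (0.173) and Pklr lower. Of the cofactor genes, Lipt2 (1.96) was higher and Slc19a2 (0.0379) and Lipt1 (0.640) lower. Of the sister complexes, Bckdk (11.3) and Ogdh (4.87) were higher and Dbt (0.310), Bckdhb (0.326), Ppm1k (0.251) and Bckdha (0.517) lower. Of the factors, Esrrg (17.6), Esrrb (10.4), Ppargc1a (4.79) and Esrra (2.90) were higher and Ppara (0.110) and Nr0b2 lower. Of the fasting genes, Ucp3 was higher and Cpt1a (0.0295), Ehhadh (0.0241), Plin2 (0.0655) and Acot1 (0.0596) lower, and of the insulin genes Fasn (0.111), Srebf1 (0.217), Tat, G6pc and Pck1 were lower.

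The protein-coding genes most like Pdk4 were ranked by the correlation of log2 levels across samples, pooled over groups and given with no test. Over the 15 livers of the insulin experiment the first 5 were Pla2g6 (Pearson r 0.913, Spearman 0.943), Il12rb2 (0.903, 0.721), Mast4 (0.901, 0.746), Ltn1 (0.894, 0.811) and Usp7 (0.892, 0.811). Without WT insulin replicates 2 and 3, r was 0.900, 0.766, 0.769, 0.865 and 0.748. Over the 8 muscles they were Ucp3 (0.959, 0.857), Lpcat4 (0.957, 0.952), Aldh1b1 (0.957, 0.929), Fam104a (0.954, 0.810) and Eva1a (0.946, 0.881). Without WT littermate muscle 3 and ERRα3SA muscle 1, r was 0.879, 0.864, 0.777, 0.752 and 0.928. These were picked as the highest among all genes, so high values were bound to appear.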

How the data were processed

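RNA of 23 livers and 8 muscles was sequenced, and the deposited tables of both experiments hold raw read counts per Ensembl gene, which the authors counted with STAR on mm10. Genes were matched to symbols with GENCODE vM21, for 97.8% of the genes in the insulin experiment and 99.9% in the ERRα3SA experiment. The median total was 39.3 M and 24.8 M counts per sample. Samples were grouped by their labels, and each comparison was fitted on its own groups in edgeR 4.0.16 (R 4.3.3) with filterByExpr, TMM factors, the quasi-likelihood test and Benjamini-Hochberg adjustment over all genes tested; the procedure was tested on simulated data. A gene was called when it differed by 1.2-fold or more in either direction with p, before adjustment, below 0.05. Intervals are 95%, and log2 levels used a prior count of 2. RPKM used the summed exon length of each gene. Tables and figures were made with Python 3.11.15, pandas 2.3.3 and matplotlib 3.10.9.

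The members and the gene lists were chosen with earlier results of these data known. All 10 members are described. Genes of 6 lists were named where called, at most 6 per list and comparison by smallest p, as were the 5 protein-coding genes most like Pdk4 in liver and in muscle. Not every gene this rule names is printed. Insr and Ppp1r3c with insulin in WT liver lie outside this limit and were chosen after their values were seen. Alternatives were DESeq2 1.42.0, the adjusted p, median-of-ratios scaling, no filter on low counts, no mitochondrial genome genes, all 4 groups in 1 fit, replicate number as a block, another transcript length, and each library left out in turn. Leaving out several libraries that stand apart, and the block within genotype, were chosen after seeing the data. No library was left out of the results otherwise. Between samples of equal replicate number in different groups, deviations from the group mean had correlations across genes from -0.181 to 0.241. These cannot show whether samples of equal number share a mouse, and the main fits treat samples as unpaired. With the block within genotype, the tissue difference in the ERRα3SA effect on Pdk4 was -0.01 on the log2 scale and was not called. All 45 pairs of libraries within groups differed by more than counting noise, with a chi-square per degree of freedom from 6.37 to 286.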

Additional observations from a re-analysis of the deposited data

Results flagged for a closer look

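Each group of 4 samples was searched for a sample far from the other 3, measured by its gap to the nearest of them over the range of the group. Of 182 groups examined, 29 held such a sample. Some would be found by chance, and how many was not tested. No explanation was weighed.

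Among the members, Pdk2 had 1 WT littermate muscle at 432 CPM below the others at 449.5 to 450.5 CPM, and Pdp2 had 1 at 4.676 CPM below 5.734 to 5.877 CPM. Pdhb had 1 ERRα KO saline liver at 62.16 CPM above 42.44 to 44.18 CPM. The share of Pdk4 among the kinases was 16.7% in 1 ERRα3SA liver, above 8.87% to 10.2%.

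Mitochondrial genome counts were low in 1 WT insulin liver (1.88%, others 3.88% to 4.17%) and 1 WT littermate muscle (10%, others 10.7% to 10.8%). They were high in 1 ERRα KO saline liver (3.91%, others 3.16% to 3.21%) and 1 ERRα3SA muscle (19.3%, others 9.15% to 9.85%).

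Summed markers, in CPM with the range of the other 3 samples in brackets, stood apart in WT insulin liver for cholangiocytes (42.35; 23.24 to 25.87), skeletal muscle (54.66; 3.574 to 7.864), slow fibres (692.1; 335.2 to 382.5) and fast fibres (105.3; up to 2.949). Skeletal muscle and fast fibres stood apart in replicate 3, cholangiocytes and slow fibres in replicate 1. That slow fibre sum is Atp2a2 (691 CPM), which led this sum in every liver of the experiment. In ERRα KO saline liver they did for macrophages (181.8; 168.5 to 169.7). In WT littermate liver they did for exocrine pancreas (153.4; 39.2 to 57.97), T and B cells (13.03; 11.05 to 11.26) and fast fibres (11.68; 0.1286 to 0.3171). In ERRα3SA liver they did for stellate cells or fibroblasts (237.3; 252.5 to 253.9), adipocytes (6.422; 1.742 to 2.311), exocrine pancreas (596.4; 24.8 to 43.08), skeletal muscle (14.22; 4.283 to 5.343), slow fibres (397.3; 278.6 to 291.0) and fast fibres (10.39; 0.1444 to 0.3777). In WT littermate muscle they did for slow fibres (2912; 3312 to 3382) and motor nerve (271.3; 187.2 to 199.8). In ERRα3SA muscle they did for cholangiocytes (59.42; 5.882 to 10.02), macrophages (259.2; 46.45 to 49.53), endothelium (230.6; 138.8 to 151.2), T and B cells (15.32; 3.464 to 5.121) and skeletal muscle (39920; 49570 to 50620).

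The interaction of genotype and insulin in liver had an unadjusted p under 0.05 for 5 of 58 tested genes of the lists, beside 8.79% of all 14670 tested genes called by the criterion. The log2 difference (knockout less WT) was -0.71 for Ldha (edgeR adjusted p 0.519), and -1.65 for Esrra, the deleted gene, whose value says nothing of a response, 0.98 for Foxo3, -1.09 for Plin2 and 0.69 for Pck1 (edgeR adjusted p 0.422 each). None passed the adjustment.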

How the results depend on the processing

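Of 3107 log2 fold changes of members and called list genes under all alternatives, 2838 kept their direction and side of the threshold. Another 165 were no longer called, 28 became called, and 76 that were never called changed sign. No called value changed sign. Pdk4 was called in both insulin comparisons under every alternative to the scaling, filter, tool or samples; the report names the libraries without which its adjusted p was not under 0.05, and with all 4 groups in the fit it was not under 0.05 in ERRα KO liver.

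The number of members called changed as follows, and the cause was not tested. Insulin against saline in ERRα KO liver gave 2 by DESeq2 and 2 with no filter on low counts. It gave 3 with all 4 groups in the fit and 2 with replicate number as a block. These fits called 17.9%, 13.7%, 13.9% and 17.6% of all genes tested, in that order. ERRα KO against WT with saline gave 0 by adjusted p, 3 with all 4 groups in the fit and 3 with the block, Pdk4 and Pdp1 being lost. The last 2 of these fits called 9.96% and 11% of all genes tested. With insulin the comparison gave 0 by adjusted p, and with the block it kept 3, with Pdp1 in place of Pdk2. That block fit called 9.72% of all genes tested. The genotype by insulin interaction gave 1 with no filter, where 8.06% of all genes tested were called. ERRα3SA in liver gave 0 by adjusted p and 0 with the block, which called 4.92% of all genes tested. In muscle it gave 1 by DESeq2, 1 with no filter, 1 with the block and 2 without both libraries that stand apart. Shares of all genes tested were 5.22%, 4.05%, 2.37% and 17.8% there. The tissue interaction gave 1 (Pdp1) without the 3 ERRα3SA libraries that stand apart, where 17.2% of 16269 genes were called. The last 2 settings were chosen after seeing the data.

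Leaving out each library in turn gave 1 to 2 members for insulin in WT and 1 to 3 in ERRα KO. It gave 2 to 5 for ERRα KO with saline, 0 to 3 with insulin and 0 to 1 for the interaction. In the same order, 13.1% to 18.3%, 12.3% to 18.5%, 9.31% to 14.4%, 5.78% to 13.2% and 5.82% to 10.8% of all genes were called. ERRα3SA gave 0 to 1 in liver, 0 to 1 in muscle and 0 to 1 for the tissue interaction. Shares of all genes called were 3.75% to 6.6%, 2.64% to 17.4% and 4.44% to 17.3%. Muscle against liver gave 9 to 10, against 83.2% to 83.5% of all genes.

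With the length of the transcript with the longest coding sequence, the ratio of kinases to phosphatases was 7.27 in WT saline, 10.1 in WT insulin, 7.87 in ERRα KO saline, 8.28 in ERRα KO insulin, 10.8 in WT littermate and 10.7 in ERRα3SA livers, 10.4 in WT littermate muscle and 12.6 in ERRα3SA muscle. So the ratio in WT littermate muscle was above that in liver by summed exon length and not by this length, whose choice alone made the difference. Depth limits Pdk3, at most 1.38 CPM in every liver.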
